A study of Mus musculus with 6 samples.

Results

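The type I interferon response genes described here are 43 genes taken by name from the count table, in which Ensembl mouse identifiers were mapped to symbols. All 43 had a row among the 51789 genes of the table, and 39 passed the filter on low counts and were tested. The rule names the genes for their known induction by interferon and uses no threshold on a value. Messenger RNA was measured in neutrophils of mouse bone marrow selected with beads against Ly6G, which mouse neutrophils carry on their surface. The libraries are 3 labelled SNPH KO (knockout of Snph, which encodes syntaphilin, an anchor of mitochondria on microtubules) and 3 labelled SNPH WT. The labels give no strain, age, sex, treatment or Cre driver, and do not say whether any animal carried a tumour, although the title places the work in cancer. Nor do they say that each sample was a separate animal, so the spread behind the p-values is that between these samples and may be technical.

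Type I interferons are cytokines that bind a receptor made of Ifnar1 and Ifnar2. The receptor's kinases Jak1 and Tyk2 phosphorylate latent factors in the cytoplasm, among them Stat2, which enters the nucleus with Irf9 as part of the factor ISGF3. ISGF3 binds the interferon-stimulated response element (ISRE) in the promoters of many genes, most of which serve defence against viruses. Neutrophils of mice are known to express some of these genes without infection, and the level is known to differ between single neutrophils of the marrow and blood.

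The promoters of 5 members are printed to show the element that these genes share and, for Oas1a and Oas1g, to set the one member that passed the test beside its neighbour. The letters searched as the ISRE core were GAAA, any 2 bases and GAAA again, read on both strands (TTTC, any 2 bases and TTTC on the other). Each window holds the 250 bases before and the 50 bases after a RefSeq gene start on GRCm38.p6, the assembly that mm10 names, written 5′ to 3′ on the strand of the gene with matches to the core in capitals.
Isg15, chr4:156200769-156201068, minus strand: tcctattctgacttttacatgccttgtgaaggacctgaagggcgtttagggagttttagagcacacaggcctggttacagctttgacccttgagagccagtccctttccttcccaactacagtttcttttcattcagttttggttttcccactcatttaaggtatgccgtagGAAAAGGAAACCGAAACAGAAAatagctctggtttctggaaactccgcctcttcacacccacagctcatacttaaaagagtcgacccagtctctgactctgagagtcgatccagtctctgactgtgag
Ifit3, chr19:34583279-34583578, plus strand: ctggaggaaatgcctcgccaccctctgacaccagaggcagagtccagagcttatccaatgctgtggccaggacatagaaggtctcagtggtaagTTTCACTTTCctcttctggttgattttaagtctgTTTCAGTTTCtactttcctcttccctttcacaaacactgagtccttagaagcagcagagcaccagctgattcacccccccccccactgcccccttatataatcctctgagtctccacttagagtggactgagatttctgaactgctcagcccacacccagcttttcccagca
Rsad2, chr12:26456403-26456702, minus strand: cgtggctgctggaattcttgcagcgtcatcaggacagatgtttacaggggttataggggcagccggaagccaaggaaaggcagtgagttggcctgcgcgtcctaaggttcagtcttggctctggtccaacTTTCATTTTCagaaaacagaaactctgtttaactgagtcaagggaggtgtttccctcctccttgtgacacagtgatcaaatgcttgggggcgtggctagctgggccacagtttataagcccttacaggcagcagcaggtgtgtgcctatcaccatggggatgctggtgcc
Oas1a, chr5:120907476-120907775, minus strand: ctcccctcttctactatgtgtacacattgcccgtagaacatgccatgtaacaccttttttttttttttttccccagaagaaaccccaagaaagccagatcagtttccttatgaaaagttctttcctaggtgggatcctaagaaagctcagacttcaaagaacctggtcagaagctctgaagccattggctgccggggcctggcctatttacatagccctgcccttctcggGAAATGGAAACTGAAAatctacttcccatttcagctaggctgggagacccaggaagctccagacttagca
Oas1g, chr5:120887564-120887863, minus strand: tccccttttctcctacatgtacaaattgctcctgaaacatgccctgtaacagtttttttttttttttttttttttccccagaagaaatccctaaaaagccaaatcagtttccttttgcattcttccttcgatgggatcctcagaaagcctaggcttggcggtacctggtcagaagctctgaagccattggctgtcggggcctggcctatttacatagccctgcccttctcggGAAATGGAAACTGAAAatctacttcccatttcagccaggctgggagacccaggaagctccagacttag

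Isg15 holds 3 overlapping matches in a run of 22 bases that starts 78 bases before the gene start. Ifit3 holds 2 separate matches, with first bases at -156 and -122, and Rsad2 holds 1, at -120. Oas1a and Oas1g hold the same 16-base run, with its first base at -20 and -18, inside a stretch of 73 bases that is identical in both windows. Of the 33 members with a RefSeq window 21 held the core (63.6%), 9 of them with 2 or more matches in a window, against 3.99% of 27025 genes with a window. Among 59 other interferon-stimulated genes with a window 26 held it (44.1%). A match describes these letters and is not evidence of binding. Dhx58, Zbp1, Ifi204, Usp18, Oas2, Mx1, Mx2, Ifi27l2a, Rtp4 and Parp14 were not matched to a window.

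Total counts ran from 7179569 to 9165218 in the KO-labelled and from 7018388 to 9664381 in the WT-labelled libraries. The targeted gene went against the labels: Snph had 5, 2 and 8 counts in KO 1, 2 and 3 and 0 counts in each WT-labelled library, where a floor of 3 counts over the group corresponds to 0.122 CPM (counts per 1000000 counts). An exact two-sided permutation test gave p = 0.1, and no smaller p is possible with 3 against 3 samples. Which part was deleted is not known here, so each direction below rests on the labels as they stand. Neutrophil markers were the most abundant of the marker lists in every library. Of these 13 markers 2 were called higher in the KO-labelled libraries, S100a8 (log2 0.24) and Retnlg (log2 0.35). The log2 fold change was above 0 for 10 of the 13 and below 0 for 3. Of 4 tested eosinophil and basophil markers 1, Ccr3, was called lower (log2 -1.15), with 2 of the 4 above 0 and 2 below. Of 15 macrophage markers, 14 were tested. All 14 had a log2 fold change below 0, and 12 of them were called lower in the KO-labelled libraries. Summed levels were 831.5 to 998.9 CPM in the KO-labelled and 1579 to 1668 CPM in the WT-labelled libraries. None of the 15 was at 0 in all libraries. Platelet and megakaryocyte markers were called lower in 4 of 7 tested. That list summed to 154.9 to 178.6 CPM in the KO-labelled and 242.8 to 275.9 CPM in the WT-labelled libraries. Of 10 B and plasma cell markers 3 were called higher, Igkc, Igha and Jchain. The median log2 fold change of these 10 was 0.03, with 5 above 0 and 5 below, among them Cd79b at -0.76 (not called).

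Nearly all tested interferon response genes were at similar mean levels in the KO-labelled and WT-labelled libraries, while the libraries of each group differed from each other. With all 6 libraries, edgeR's quasi-likelihood test called 1 of 39 tested members at an adjusted p under 0.05 (Benjamini-Hochberg, 10397 genes), and it was lower; 0 were higher. Over all genes tested 1.03% were called, 0.789% as lower and 0.24% as higher, so that a count of 1 among 39 is near the share over all genes. At an unadjusted p under 0.05 there were 2 members, against 11.4% of all genes. The median log2 fold change of the members was 0.03, against 0.01 for all genes tested, with 21 members above 0 and 18 below. Of the 39 members, 32 lay within 0.25 of 0 on the log2 scale, and the standard error of a member's log2 fold change had a median of 0.19. The groups did not overlap for 2 tested members, Oas1a and Bst2, where 16.8% of all tested genes had groups that do not overlap.

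**Figure D1:**
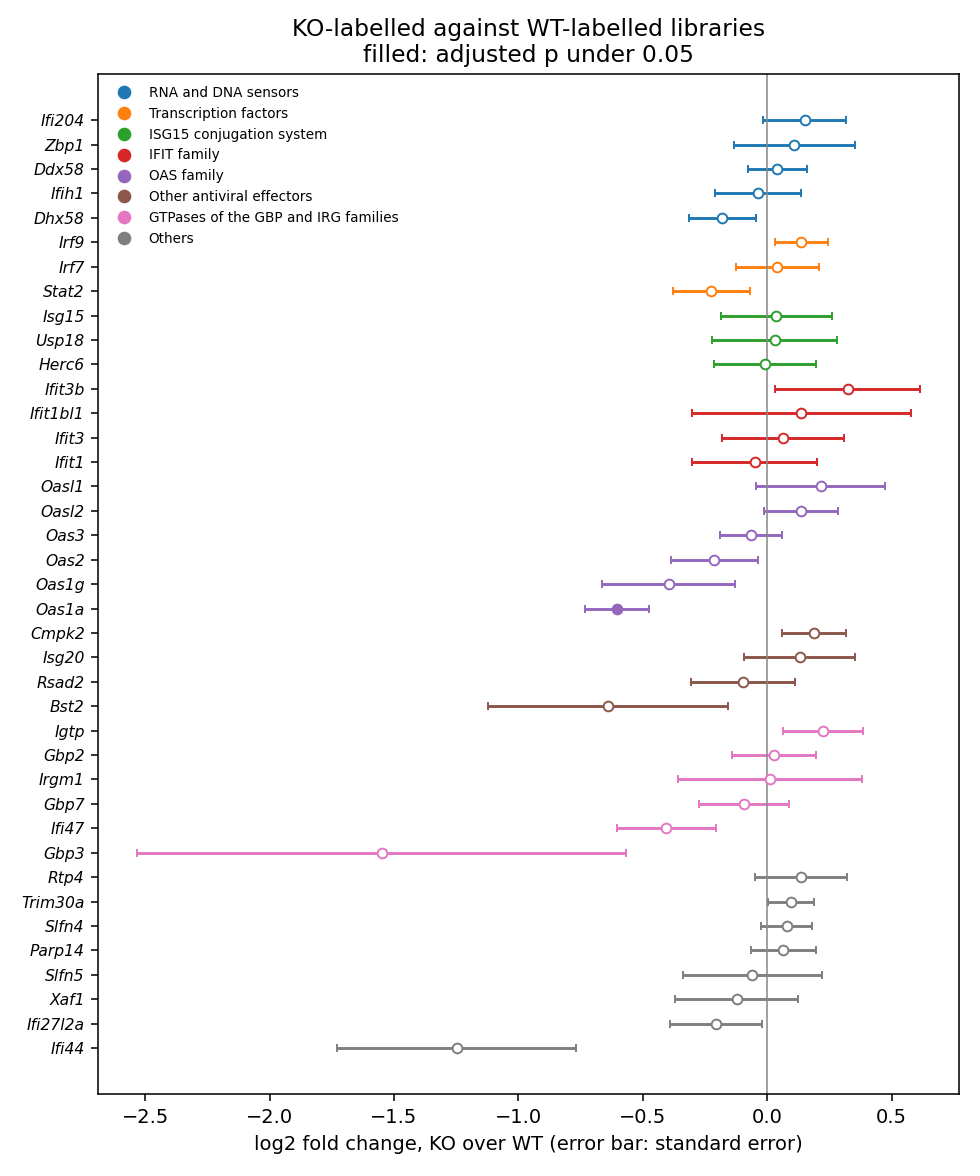
Log2 fold change of each of the 39 tested members, KO-labelled over WT-labelled libraries (n = 3 each), ordered by role; bars are standard errors and the filled point marks an adjusted p under 0.05. Oas1a, at -0.60, is the one filled point, and 32 members lie within 0.25 of 0.

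Which library of a group was highest was shared by most members. KO 2 was the highest of the KO-labelled libraries for 34 of 39 tested members, and WT 3 was the highest of the WT-labelled libraries for 36 of 39. Over all genes tested, KO 2 was the highest of its group for 33.2% and WT 3 for 35.6%. Both held together for 31 members (79.5%), against 9.98% of all genes. Relative to its mean over the 6 libraries on the log2(CPM + 1) scale, the median member was at -0.17, 0.29 and -0.17 in KO 1, 2 and 3 and at -0.31, -0.05 and 0.34 in WT 1, 2 and 3. The same median over all genes tested stayed between -0.003 and 0.012 in every library. Summed over the 39 members, the level was 2727, 3661 and 2758 CPM in KO 1, 2 and 3 and 2461, 2932 and 3559 CPM in WT 1, 2 and 3, so the group means (3049 ± 531 and 2984 ± 551 CPM; SD, n = 3 each) lay closer to each other than the lowest and highest library of either group. WT 1 was the lowest WT-labelled library for 35 of the 39 members, and the lowest KO-labelled library was KO 1 for 16 and KO 3 for 22.

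**Figure D2:**
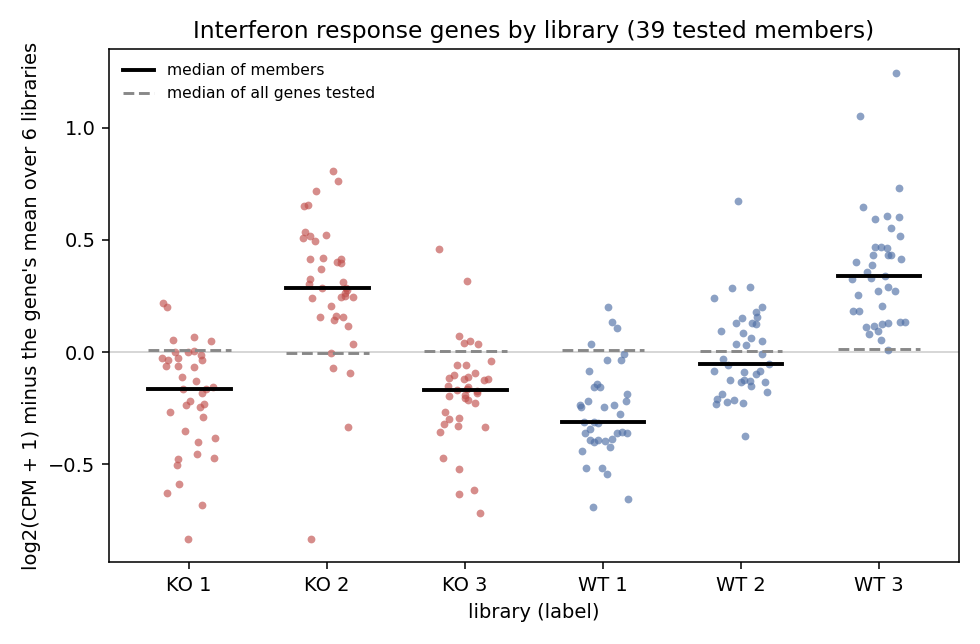
Level of the 39 tested members in each library, as log2(CPM + 1) minus the gene's mean over the 6 libraries; each point is a gene, solid lines are member medians and dashed lines medians of all genes tested. The member medians are 0.29 in KO 2 and 0.34 in WT 3, and below 0 in the other libraries of both groups.

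The 8 members that did not follow both libraries were Ifih1, Dhx58, Oas1a, Isg20, Bst2, Gbp2, Gbp3 and Irgm1. Among the other interferon-stimulated genes tested, 40 of 60 were highest in KO 2 within its group and 42 of 60 in WT 3 within its group, and 27 (45%) in both. Of the pathway's receptors, kinases and latent factors 1 of 14 was highest in both libraries, and their medians on the relative scale lay between -0.046 and 0.027. At a mean of at least 10 CPM, the highest library of a group exceeded its lowest by a median of 1.51-fold in the KO-labelled and 1.52-fold in the WT-labelled libraries over 34 members, against 1.19-fold and 1.18-fold over 5935 genes at such levels. The fold change between groups was smaller than the range within each group for 31 of these 34 members (91.2%) and for 66.7% of the 5935 genes, and larger than both ranges for 1 member, Oas1a (2.94%), and for 10.7% of the genes. The members' median dispersion, the squared coefficient of variation beyond counting error that edgeR estimates, was 0.0234, against 0.0112 for those 5935 genes. The median range of members with the ISRE core was 1.498-fold in the KO-labelled and 1.51-fold in the WT-labelled libraries (16 members), and that of members without it 1.56-fold in the KO-labelled and 1.39-fold in the WT-labelled libraries (10 members).

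**Figure D3:**
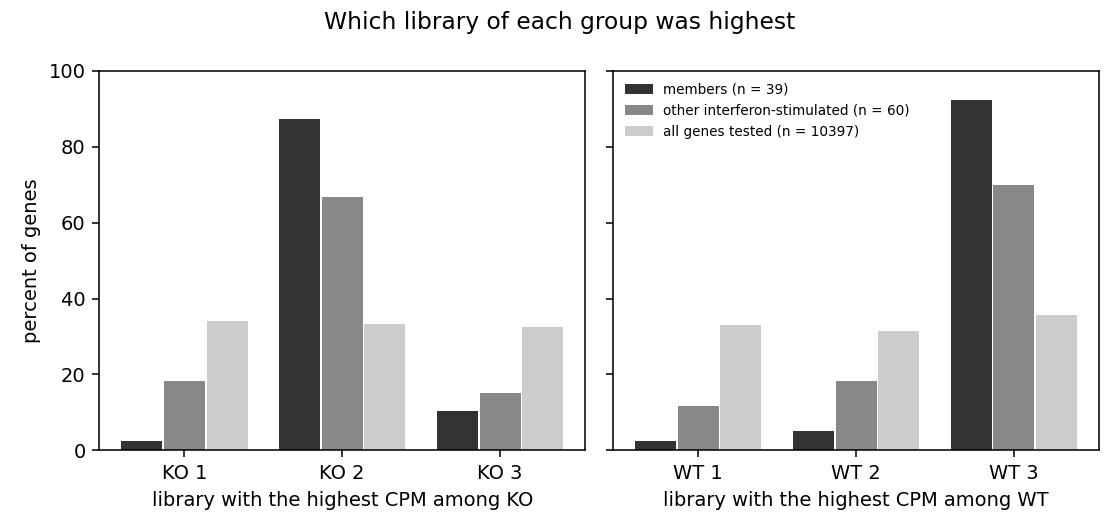
Percent of genes for which each library had the highest CPM of its group, for the 39 members, the 60 other interferon-stimulated genes and all genes tested; KO-labelled libraries on the left, WT-labelled on the right. The members' bars reach 87.2% for KO 2 and 92.3% for WT 3, where all genes stand at 33.2% and 35.6%.

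Total counts and some markers of other cell types also differed between these libraries, and their part in the pattern was not tested. KO 2 and WT 3 had the lowest total counts of their groups, 7179569 and 7018388. The summed erythroid markers were at 1663, 2778 and 1396 CPM in KO 1, 2 and 3 and at 1281, 2122 and 2033 CPM in WT 1, 2 and 3, and their highest libraries were KO 2 and WT 2. The summed B and plasma cell markers were highest in KO 2, at 1365 CPM against 619.6 and 595.8 CPM in KO 1 and 3. Igkc and Igha gave 658.4 and 523.8 CPM of the KO 2 sum. In the WT-labelled libraries the sum was 392.6 to 445.3 CPM, with the lowest value in WT 3. Plasmacytoid dendritic cells are known to make interferon. Their markers summed to 16.6 to 20.4 CPM in the KO-labelled and 21.3 to 23.6 CPM in the WT-labelled libraries. Tcf4 alone gave 12.06 to 13.75 CPM and 12.14 to 15.09 CPM of these sums. Bst2, another of the 7, is itself a member, and 3 of the 7 stayed under 1 CPM in every library. The summed dendritic cell markers were lowest in KO 2, at 111.6 CPM against 154.7 and 164.3 CPM in KO 1 and 3. They were highest in WT 3, at 213.5 CPM against 167.1 and 165.4 CPM in WT 1 and 2. Nearly all of each sum came from the 5 tested markers, Itgax, Cd74, H2-Aa, H2-Ab1 and H2-Eb1. Flt3 and Zbtb46 were below the filter. Flt3 had 10, 2 and 6 counts in KO 1, 2 and 3 and 10, 1 and 0 counts in WT 1, 2 and 3. Zbtb46 had 3, 4 and 1 counts in KO 1, 2 and 3 and 2, 12 and 5 counts in WT 1, 2 and 3. The summed macrophage markers were at 831.5, 861.5 and 998.9 CPM in KO 1, 2 and 3, highest in KO 3. In WT 1, 2 and 3 they were at 1616, 1579 and 1668 CPM, highest in WT 3. In whole preparations like these, more cells that express a gene and more RNA of it per cell cannot be told apart.

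With so few libraries, the one left out decided the sign of the members' median. Without KO 2 the median log2 fold change was -0.26, with 8 of 40 members above 0. Without WT 3 it was 0.20, with 29 of 39 above 0. Without WT 1 it was -0.15 and without WT 2 -0.02; without KO 1 and without KO 3 it was 0.08 and 0.10. Scaling to library totals alone gave -0.08, where the median of all genes tested was -0.10.

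**Figure D4:**
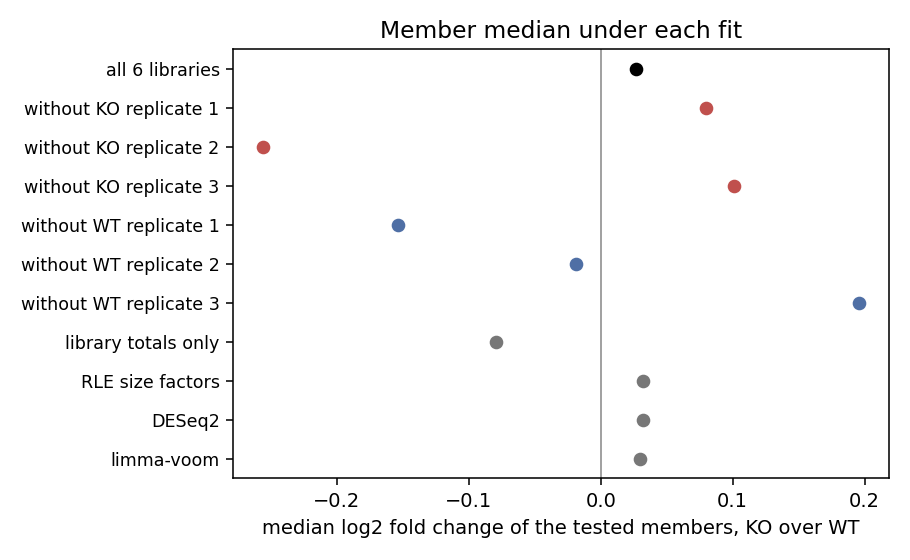
Median log2 fold change of the tested members, KO-labelled over WT-labelled libraries, with all 6 libraries, without each library in turn and with other scaling or tests. The values run from -0.26 without KO 2 to 0.20 without WT 3, on both sides of 0.

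The OAS family held the one member that passed. OAS enzymes sense double-stranded RNA and make the short messenger that activates RNase L, which cuts RNA. Oas1a (ENSMUSG00000052776, chromosome 5, 120896256 to 120907521, minus strand, mm10) was at 22.5, 24.9 and 29.6 CPM in KO 1, 2 and 3 and at 36.4, 38.8 and 42.05 CPM in WT 1, 2 and 3. All KO-labelled libraries lay below all WT-labelled ones, and KO 2 was not the highest of its group. The level was 1.52-fold lower in the KO-labelled libraries (25.6 ± 3.6 and 39.1 ± 2.8 CPM; SD, n = 3 each; log2 -0.60, SE 0.13, edgeR adjusted p = 0.0397). The macrophage markers, whose sums are given above for every library, were also lower in the KO-labelled libraries. Like Oas1a, these sums were highest in KO 3 and WT 3 within their groups. The part of macrophages in the Oas1a call was not tested. Leaving out KO 1, KO 2 or any WT-labelled library ended the call (edgeR adjusted p 0.0877 to 0.184), and so did limma-voom (0.0506), whereas DESeq2 made it (0.0119). The share of all genes called was 0.623%, 0.561% and 0.9% without KO 1, 2 and 3, 0.533%, 0.457% and 0.579% without WT 1, 2 and 3, 0.885% with the replicate number as a block, and 0.789% with limma-voom and 1.67% with DESeq2. It was 1% with RLE and 1.06% with upper-quartile factors, 1.56% with library totals only, 1.46% both with no filter and with a filter of 5 CPM in 3 libraries, and 1.02% with close copies summed.

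Oas1g (chromosome 5, 120876142 to 120887613, minus strand), the next copy on the chromosome, was at 25.9, 52.65 and 23.9 CPM in KO 1, 2 and 3 and at 31.2, 40.6 and 62.3 CPM in WT 1, 2 and 3. It followed the libraries, with overlapping groups, and did not pass (log2 -0.40, SE 0.27, adjusted p = 0.643). Both genes carry the same ISRE run in the windows printed above. Of the 50-base windows in the last 300 bases of Oas1a transcripts, where the libraries take their reads, 21.1% occur letter for letter in Oas1g, so some reads could have been divided between them. Summed, the pair was at 48.4, 77.5 and 53.45 CPM in KO 1, 2 and 3 and at 67.6, 79.4 and 104.3 CPM in WT 1, 2 and 3, and did not pass (log2 -0.49, SE 0.17, adjusted p = 0.241).

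The other OAS members gave no call. Oas3 was at 145, 209 and 154 CPM in KO 1, 2 and 3 and at 155, 187 and 188 CPM in WT 1, 2 and 3. Oas2 was at 36.5, 58.4 and 48.5 CPM in KO 1, 2 and 3 and at 45.3, 48.5 and 72.6 CPM in WT 1, 2 and 3 (log2 -0.21, SE 0.18, adjusted p = 0.732), and its sign turned without WT 3 (0.03). Oasl2 was at 214, 291 and 190.5 CPM in KO 1, 2 and 3 and at 185, 188 and 260.2 CPM in WT 1, 2 and 3. Oasl1, known in mice to restrain the translation of Irf7, had the widest range in 1 group at 10 CPM or more, 2.52-fold, between KO 2 at 39.1 CPM and KO 1 at 15.5 CPM. KO 2 was the highest KO-labelled library for 5 of the 6 OAS members, and WT 3 the highest WT-labelled one for all 6.

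The IFIT genes, whose proteins bind foreign RNA and block its translation, had the highest medians of the roles in KO 2 and WT 3. On the relative scale the median of the 4 tested IFIT members was -0.29, 0.69 and -0.28 in KO 1, 2 and 3 and -0.48, -0.15 and 0.49 in WT 1, 2 and 3, and all 4 were highest in KO 2 and WT 3. Ifit3 was at 37.2, 75.7 and 40.6 CPM in KO 1, 2 and 3 and at 32.5, 49.05 and 64.8 CPM in WT 1, 2 and 3. Ifit1, which recognises caps that lack a methyl group, was at 24.5, 41.6 and 22.2 CPM in KO 1, 2 and 3 and at 22.45, 24.7 and 44.2 CPM in WT 1, 2 and 3. For both genes the group means were close, 51.2 ± 21.3 and 48.8 ± 16.2 CPM for Ifit3 and 29.5 ± 10.6 and 30.5 ± 11.96 CPM for Ifit1 in KO-labelled and WT-labelled libraries (SD, n = 3 each). Ifit3b, a close copy of Ifit3, had the highest log2 fold change of all members, 0.32 with an adjusted p of 0.759, and summed with Ifit3 it was at 0.12. Ifit2 was below the filter, with 7, 0 and 5 counts in KO 1, 2 and 3 and 6, 9 and 15 counts in WT 1, 2 and 3.

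The ISG15 system, in which the small protein Isg15 is attached to other proteins, shared the pattern in all 3 of its members. Isg15 was at 35.9, 59.7 and 33.0 CPM in KO 1, 2 and 3 and at 30.9, 37.2 and 57.0 CPM in WT 1, 2 and 3. Usp18, the protease that removes Isg15 and also dampens the interferon receptor, ranged from 14.2 to 19.0 CPM in the KO-labelled and from 10.4 to 23.9 CPM in the WT-labelled libraries. Herc6, the ligase of the system in mice, ranged from 25.6 to 37.9 CPM in the KO-labelled and from 21.8 to 40.6 CPM in the WT-labelled libraries. The 3 log2 fold changes lay between -0.007 and 0.037.

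**Figure D5:**
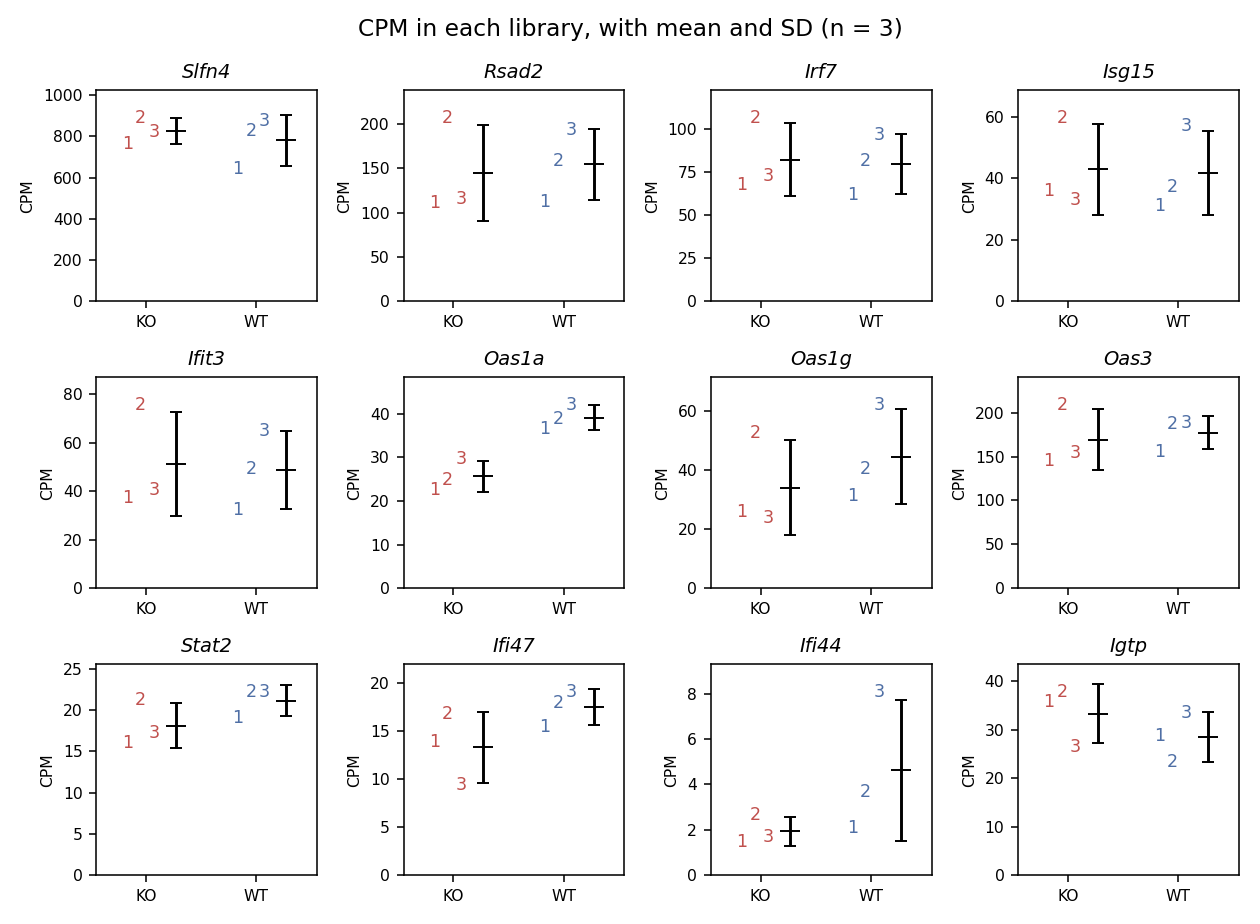
CPM of 12 members in each library, written as the replicate number at its level, with the mean and SD of each group (n = 3) beside it; KO-labelled on the left of each panel and WT-labelled on the right. For Rsad2, Irf7, Isg15, Ifit3 and Oas1g the numbers 2 (KO) and 3 (WT) stand highest in their groups, whereas for Oas1a the groups do not overlap.

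Among the other antiviral effectors, Rsad2, the gene of viperin, an enzyme that makes a chain-terminating nucleotide, was at 110.7, 207 and 116 CPM in KO 1, 2 and 3 and at 112, 158 and 193 CPM in WT 1, 2 and 3. Cmpk2, its neighbour on chromosome 12 and a nucleotide kinase, was at 109, 148 and 102 CPM in KO 1, 2 and 3 and at 93.1, 101 and 119.9 CPM in WT 1, 2 and 3 (log2 0.19, SE 0.13, adjusted p = 0.655). Both were highest in KO 2 and WT 3. Isg20, an exonuclease, ranged from 16.4 to 33.5 CPM in the KO-labelled and from 19.0 to 28.2 CPM in the WT-labelled libraries. Bst2, the gene of tetherin, which holds budding viruses at the cell surface, was low, at 2.0, 1.9 and 0.78 CPM in KO 1, 2 and 3 and at 2.2, 2.2 and 2.8 CPM in WT 1, 2 and 3. Its groups did not overlap, but it did not pass (log2 -0.64, SE 0.48, adjusted p = 0.686).

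The Mx genes, whose proteins are GTPases that trap viral nucleocapsids, stood out by their low counts. Mx1 (chromosome 16, 97447035 to 97462907) had 2, 0 and 0 counts in KO 1, 2 and 3 and 5, 13 and 14 counts in WT 1, 2 and 3. The groups did not overlap, and KO 2, the highest KO-labelled library for most members, had no count. Pooled over each group the ratio was 0.0639, with an exact 95% interval of 0.00741 to 0.25 that covers counting error only. Mx1 lay below the filter on low counts; without that filter its adjusted p was 0.0728 (edgeR), and an exact two-sided permutation test gave p = 0.1. Mx2 had 0, 0 and 3 counts in KO 1, 2 and 3 and 2, 6 and 6 counts in WT 1, 2 and 3. Many laboratory strains of mice are known to carry defective Mx1 alleles, and the labels name no strain.

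The sensors of viral nucleic acid had a median log2 fold change of 0.04, and none of the 5 passed. Ddx58, the gene of the RNA sensor RIG-I, was at 66.9, 82.7 and 64.4 CPM in KO 1, 2 and 3 and at 59.9, 67.2 and 80.6 CPM in WT 1, 2 and 3. Dhx58, the gene of LGP2, which modulates RIG-I and MDA5, was at 27.4, 34.6 and 25.4 CPM in KO 1, 2 and 3 and at 33.2, 32.8 and 32.6 CPM in WT 1, 2 and 3 (log2 -0.18, SE 0.13, adjusted p = 0.681), and its WT-labelled values hardly differed. Ifih1 (MDA5), Zbp1, a sensor of Z-form nucleic acid, and Ifi204, a DNA sensor, had log2 fold changes of -0.04, 0.11 and 0.15. All 5 sensors were highest in KO 2 within their group, and 3 of them in WT 3.

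Irf7, the factor that amplifies interferon production, was at 67.5, 107 and 73.0 CPM in KO 1, 2 and 3 and at 61.95, 81.4 and 96.5 CPM in WT 1, 2 and 3. Irf9 was at 120.2, 143 and 117 CPM in KO 1, 2 and 3 and at 99.1, 118 and 128 CPM in WT 1, 2 and 3 (log2 0.14, SE 0.11, adjusted p = 0.702). Stat2 was at 16.04, 21.2 and 17.2 CPM in KO 1, 2 and 3 and at 19.0, 22.2 and 22.2 CPM in WT 1, 2 and 3 (log2 -0.22, SE 0.155, adjusted p = 0.655). All 3 were highest in KO 2 and WT 3, and none passed. Counts of Irf9, Herc6, Gbp7, Rtp4 and Parp14 could be uncertain because exons of another gene overlap theirs on the same strand. Those of Irf7, Usp18, Oasl1, Gbp2, Dhx58 and Slfn5 could be so because exons overlap on the other strand. Whether these overlaps lie at the 3′ end, where the libraries take their reads, was not examined.

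The GTPases of the GBP and IRG families, which attack the membranes of vacuoles around pathogens and are known to respond to interferon gamma as well, were highest in KO 2 within its group for 3 of 6 tested members and in WT 3 within its group for all 6. Igtp was at 35.6, 37.8 and 26.45 CPM in KO 1, 2 and 3 and at 28.7, 23.3 and 33.4 CPM in WT 1, 2 and 3 (log2 0.22, SE 0.16, adjusted p = 0.668). Ifi47 was at 13.9, 16.8 and 9.4 CPM in KO 1, 2 and 3 and at 15.5, 18.0 and 19.1 CPM in WT 1, 2 and 3 (log2 -0.40, SE 0.20, adjusted p = 0.474). The groups of both genes overlapped. Gbp3 had 0, 0 and 13 counts in KO 1, 2 and 3 and 2, 18 and 20 counts in WT 1, 2 and 3. It did not pass (log2 -1.55, SE 0.98, adjusted p = 0.615), and so few counts left its size unsettled, at -2.59 with limma-voom; without KO 3 the KO-labelled libraries hold no count of it and no fold is given. Gbp2, Gbp7 and Irgm1 had log2 fold changes of 0.03, -0.09 and 0.01, and Gbp5 was below the filter with 19 counts in each group. Exons of Igtp and Ifi47 overlap those of Irgm2 and Olfr56 on their strands.

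Slfn4 (chromosome 11, 83175186 to 83190216), a myeloid member of the Schlafen family, was the most abundant member, at 765, 891 and 822 CPM in KO 1, 2 and 3 and at 643, 828 and 876 CPM in WT 1, 2 and 3. CPM here counts reads from the 3′ end of a transcript, which needs no division by gene length. Trim30a, a member of the TRIM family, was at 284, 305 and 262 CPM in KO 1, 2 and 3 and at 240.1, 257 and 298 CPM in WT 1, 2 and 3. Both had narrow ranges, under those of the IFIT genes in each group. Rtp4, known in mice to restrain the response through Tbk1, was at 150.4, 234 and 146 CPM in KO 1, 2 and 3 and at 121, 151 and 211 CPM in WT 1, 2 and 3. Ifi27l2a was at 113.5, 178 and 138 CPM in KO 1, 2 and 3 and at 129, 140.1 and 227 CPM in WT 1, 2 and 3. Slfn5 had a wide range, 24.4 to 54.4 CPM in the KO-labelled and 26.01 to 54.2 CPM in the WT-labelled libraries, with a log2 fold change of -0.06. Ifi44 was at 1.5, 2.6 and 1.7 CPM in KO 1, 2 and 3 and at 2.1, 3.7 and 8.1 CPM in WT 1, 2 and 3. It had the second smallest p of the members and did not pass (log2 -1.25, SE 0.48, adjusted p = 0.316), and without WT 3 its log2 fold change was -0.59. Xaf1 and Parp14 had log2 fold changes of -0.12 and 0.07.

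No message of a type I interferon was seen. Of 21 interferon genes looked up, 20 had no count in any library, among them Ifnb1 and all listed Ifna genes, and Ifng had 2 counts, both in WT 2. For each of the 20 genes the limit that a count of 0 allows is 0.125 CPM over the KO-labelled and 0.122 CPM over the WT-labelled libraries. The receptor genes were measured in every library: Ifnar1 averaged 9.57 ± 1.92 and 10.5 ± 2.01 CPM and Ifnar2 97.8 ± 5.12 and 100.3 ± 7.12 CPM in KO-labelled and WT-labelled libraries (SD, n = 3 each).

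In the list of 14 receptors, kinases and latent factors 1 gene fell and none rose, where 0.789% of all genes tested were called lower and 0.24% higher; the list's median log2 fold change was 0.02. That gene was Irf8, a factor of the monocyte and dendritic cell lineages that also takes part in interferon responses, at 17.3 ± 1.6 and 35.0 ± 2.3 CPM in KO-labelled and WT-labelled libraries (SD, n = 3 each; log2 -1.01, SE 0.13, adjusted p = 0.00104). It kept its call in every alternative run. The 14 tested macrophage markers, 12 of them called lower, had a median log2 fold change of -1.06 in the same comparison. Of 6 monocyte markers and 5 tested dendritic cell markers 0 were called, with medians of -0.18 and -0.40. The part of these cell types in the Irf8 result was not tested. Among the abundant genes of the list, Jak1, Stat3 and Irf1 did not pass, with log2 fold changes of 0.09, 0.15 and 0.29, nor did Tyk2 at 0.21. In the list of 13 genes of pathways that induce interferon none of 10 tested passed (median -0.03); Mb21d1, the gene of the DNA sensor cGAS, was at -0.75 (SE 0.27, adjusted p = 0.272), Mavs at -0.83, Myd88 at 0.22 and Tlr7 at -0.19. Unc93b1, Traf3 and Tbk1, also abundant, were at -0.07, -0.005 and -0.03.

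Among 9 negative regulators 1 rose, where 0.24% of all genes did, and none fell, with a median of 0.02. It was Socs3, an inhibitor of cytokine receptor kinases, at 52.9 ± 8.4 and 31.7 ± 3.9 CPM in KO-labelled and WT-labelled libraries (SD, n = 3 each; log2 0.74, SE 0.13, adjusted p = 0.0121), and its call ended without KO 1 or WT 1 (adjusted p 0.0525 and 0.0750). Socs1, also in this list, had a log2 fold change of 0.02. Ptpn1, Cish, Ptpn6 and Pias1 were at 0.20, 0.28, -0.02 and -0.03 and did not pass.

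Of 72 other interferon-stimulated genes 60 were tested, and 3 fell and 1 rose, where 0.789% of all genes tested were called lower and 0.24% higher. Their median log2 fold change was -0.001. The 3 that fell were Ifi203, a nuclear DNA-binding protein gene, with 7.6 ± 1.1 and 16.1 ± 0.80 CPM in KO-labelled and WT-labelled libraries (SD, n = 3 each; log2 -1.08, SE 0.18, adjusted p = 0.00722), Fcgr1, the high-affinity IgG receptor gene (log2 -1.41, SE 0.26, adjusted p = 0.0161), and Lgals3bp, a secreted glycoprotein gene (log2 -0.90, SE 0.18, adjusted p = 0.0220). Fcgr1 is known from macrophages and monocytes, and the macrophage markers that were lower in the same libraries are given above. Of 6 monocyte markers 0 were called, with a median log2 fold change of -0.18 (1 above 0 and 5 below). The part of either cell type in these calls was not tested. Ifitm2, a membrane protein gene that blocks virus entry, rose (log2 0.41, SE 0.09, adjusted p = 0.0487). Calls ended without WT 2 for Ifi203 (adjusted p = 0.0524), without WT 2 or KO 3 for Fcgr1 (0.153 and 0.0553), without KO 1 or any WT-labelled library for Lgals3bp (0.0541 to 0.139) and without any 1 library (0.0522 to 0.200), with upper-quartile factors (0.0627), library totals only (0.0970) or the filter of 5 CPM (0.0532) for Ifitm2. Ifitm3, Samhd1, Slfn2 and Slfn1, the most abundant of the list, had log2 fold changes of 0.18, 0.09, 0.25 and 0.28 and did not pass. Exons of Ifi203 and Ifitm2 overlap those of another gene on their strand.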

How the data were processed

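The authors deposited 1 table of whole-number counts per Ensembl gene for 6 Lexogen QuantSeq libraries, which read the 3′ end of transcripts, not scaled between libraries. RSEM 1.2.3, DESeq2 and mm10 are named, with no role or order, in the submitters' processing notes; aligner, annotation release and strand setting: not given in the sources used here. Reads from a stretch where genes overlap, on either strand, therefore cannot be told apart. RSEM divides reads that fit several genes.

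The test was that of edgeR 4.0.16 (R 4.3.3; glmQLFit, glmQLFTest) with TMM factors and the group as the one term. filterByExpr (minimum count 10, minimum total 15) kept 10397 genes, over which p-values were adjusted by Benjamini-Hochberg and called under 0.05. The procedure was tested on simulated data. CPM values are per 1000000 counts in the genes tested, scaled by TMM factors, except floors and pooled ratios, which use total counts. A standard error is the size of the log2 fold change over the square root of its F statistic. Groups came from the condition label and column names. Symbols and coordinates came from GENCODE vM21 (GRCm38, mm10), and promoters from RefSeq on GRCm38.p6. The chi-square statistic per degree of freedom between replicates was 4.33 to 7.41, so no pair agreed within sampling noise.

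The members and lists were chosen with earlier results of these data known. Values per library are given for the 12 most abundant members, the 12 with the smallest p and any past the threshold; Isg15, Ifit1, Ifit3, Ifit2, Mx1, Mx2, Oasl1, Usp18, Herc6, Isg20 and Slfn5 were added after their values were seen. Of other lists, called genes, the 4 with the smallest p and the 4 most abundant are named, with Ifnar1, Ifnar2 and Socs1 added; 1 gene that this rule takes is not reported here. The alternatives tried were DESeq2 1.42.0, limma-voom (limma 3.58.1), other scaling and filters, a replicate block and leaving out each library.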

Additional observations from a re-analysis of the deposited data

How the results depend on the processing

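The number of members called was 1 with all libraries, 0 to 1 without 1 library, 0 with limma-voom and 0 with the paralogue pairs summed, an alternative chosen after seeing the data. All genes called were 107, against 174 with DESeq2, 162 with library totals only, 287 with no filter and 49 to 97 without 1 library. Calls among the other interferon-stimulated genes numbered 4, and 0 to 3 without 1 library; calls among ligand, receptor and signalling genes numbered 2, and 1 to 2 without 1 library. The members' median log2 fold change was 0.004 to 0.04 with 6 libraries, except -0.08 with library totals only, and -0.26 to 0.20 without 1 library. Of 176 values of the 12 members with the smallest p under the alternatives, 168 kept sign and side of the threshold, 7 were those of Oas1a losing its call, and 1 changed sign, Oas2 without WT 3 (0.0271, in a range of -0.3755 to 0.0271 without 1 library); the causes were not tested.

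Same-numbered libraries did not deviate together (correlations -0.026, -0.012 and -0.131 over genes). These values gave no sign that the numbers pair the samples, but cannot exclude it. Differently numbered libraries gave correlations from -0.17 to 0.183. The replicate block gave 92 calls in all, 1 member called (Oas1a, edgeR adjusted p = 0.0396) and a member median of 0.04. At these depths members under 5 CPM, 9 of 43, had standard errors of 0.37 or more where tested, and a fold change of theirs was not detectable unless large.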
